A study of Homo sapiens with 18 samples.

Results

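The genes described here are 10 components of the Notch pathway, listed by symbol under a rule that applies no measured value, though drawn up with earlier results of these data known: the receptors NOTCH1, NOTCH2 and NOTCH3, the ligands JAG1, JAG2, DLL1 and DLL4, the effectors HES1 and HEY1, and ATOH1, a gene that Notch signalling represses in the gut. They are 10 of the 61806 genes listed. A gene was tested where it reached 1 TPM (a length-scaled share of a library) in at least 3 of the 18 libraries, and 8 of the 10 genes were among the 18537 that did so. HEY1 and ATOH1 did not, and their values are given as listed.

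RNA was sequenced from LoVo and DLD-1, established human colorectal cancer lines grown in serum-containing medium. Each line was labelled EV (a genotype the labels do not spell out), LIN28B overexpressed without treatment, or LIN28B overexpressed with 5 µM alpelisib, an inhibitor of the alpha catalytic subunit of PI3K. The 6 groups held 3 libraries each, and no EV cells received alpelisib. For the length of treatment, the vehicle and the way the LIN28B lines were made, the sources used here say nothing. No label says that the libraries of a group came from separate cultures, and the spread on which the p-values rest may therefore be technical. In such bulk samples, fewer cells expressing a gene and less RNA per cell cannot be told apart.

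In Notch signalling, a ligand on 1 cell binds a receptor on its neighbour, proteases release the intracellular domain of the receptor, and that domain joins the DNA-binding protein RBPJ and a Mastermind coactivator at target genes. In the intestinal crypt the pathway maintains progenitors and favours the absorptive lineage, since its target HES1 represses ATOH1, the factor that commits cells to the secretory lineage of goblet, Paneth and enteroendocrine cells. LIN28B blocks the maturation of let-7 microRNAs.

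Both sequence sets shown here mark a link to the design or to the pathway. The first is the bases just upstream of HES1, shown because this region is a textbook target of the Notch nuclear complex. In GRCh38.p14 (RefSeq) it lies on the plus strand at chr3:194135898-194136144, directly before the annotated start of HES1, and the capitals mark matches to the RBPJ core TGGGAA.

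HES1 upstream: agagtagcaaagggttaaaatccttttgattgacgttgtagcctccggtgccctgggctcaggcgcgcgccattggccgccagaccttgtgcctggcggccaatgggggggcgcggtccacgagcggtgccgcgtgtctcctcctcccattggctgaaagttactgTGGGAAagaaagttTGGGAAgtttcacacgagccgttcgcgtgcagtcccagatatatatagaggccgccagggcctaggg

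The 2 matches lay at 194136064 to 194136069 and 194136078 to 194136083, beginning 81 and 67 bases before that GENCODE start. The search covered both strands of the 250 bases before each gene start in RefSeq. Of 35116 such windows, 20.8% held at least 1 match and 2.9% held 2 or more. Of the 10 genes, 8 had a window in the table, and HES1 was the only 1 of those 8 with an RBPJ core match. The N-box CACNAG was found in the windows of HES1 (3 matches), NOTCH3 (1) and ATOH1 (1), against 32% of all windows, and the E-box CACGTG in 0 of the 8, against 6.34%. A match is a string of letters and not a measured site.

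The second set is the let-7 family, shown because LIN28B acts on it. The 9 mature sequences matched in RefSeq (GRCh38.p14) share the seed GAGGUAG, bases 2 to 8, in capitals.

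let-7a: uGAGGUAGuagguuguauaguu
let-7g: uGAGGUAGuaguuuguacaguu
miR-98: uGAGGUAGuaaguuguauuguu

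The site that pairs with this seed, CTACCTC, was looked for in the 3′ UTR of each gene's principal transcript (GENCODE 29), a search added after the data were seen. It was present in 0 of the 10 genes and in 8.58% of 19132 genes, with 4 matches each in LIN28B itself and HMGA2. A rule tried first, the longest 3′ UTR of any transcript, gave 1 match in NOTCH2 and a share of 9.71%, but found 0 in HMGA2, whose principal UTR holds 4, and was replaced for that reason. These counts say only whether these letters stand in these windows.

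The libraries were read before the members. LIN28B measured 4.91, 3.66 and 3.87 TPM in LoVo EV, against 706, 682 and 674 TPM in its LIN28B-labelled counterpart. The corresponding values were 2.74, 1.17 and 1.38 TPM in DLD-1 EV and 493, 483 and 408 TPM in DLD-1 LIN28B. With alpelisib LIN28B itself was lower, at 146, 160 and 155 TPM under the LoVo label (limma, adjusted p = 6.60e-08) and 150, 139 and 141 TPM in DLD-1 (adjusted p = 1.90e-06), so every alpelisib comparison below also compares a higher with a lower LIN28B level. Across genes, log2(TPM + 1) of the LoVo-labelled LIN28B libraries correlated at r = 0.964 to 0.968 with DLD-1 LIN28B and at 0.890 to 0.918 with LoVo EV, a description over genes that share libraries. LoVo EV correlated with DLD-1 EV at 0.886 to 0.918. The LoVo-labelled LIN28B libraries thus resembled DLD-1 more than the LoVo EV libraries. Their line could not be checked, and a difference between lines and an effect of LIN28B cannot be told apart under that label. Mitochondrially encoded transcripts took 24.0, 23.1 and 14.5% of the TPM in LoVo EV and 7.24 to 15.8% in the other libraries. The colorectal epithelial markers EPCAM and CDX2 lay between 456 and 729 TPM and between 83.0 and 694 TPM. The leukocyte gene PTPRC and the endothelial gene PECAM1 were at most 0.122 and 0.0389 TPM. The leukocyte marker CD14, however, reached 2.09 TPM and exceeded 1 TPM in 10 libraries, and the endothelial marker VWF reached 1.53 TPM. All 8 epithelial markers listed exceeded 1 TPM in all 18 libraries, but their sum ran from 7031 to 7992 TPM in LoVo EV and from 9023 to 15202 TPM elsewhere. Of the 8, only KRT18 had no lower mean in LoVo EV than in LoVo-labelled LIN28B (1736 and 1726 TPM). VIL1 averaged 3.03 against 24.8 TPM and CDH1 66.8 against 259 TPM in these groups. The 6 fibroblast markers summed to 9.52 to 15.0 TPM in LoVo EV and 3.24 to 8.44 TPM in the other groups. Of these, COL1A1 reached 14.3 TPM and PDGFRB 4.14 TPM, while COL1A2 was at 0 in every library. What part such markers had in the results was not tested.

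Differences between groups are on the log2(TPM + 1) scale, which understates the change of low genes, and are given ± SE. They come from 1 limma fit of all 18 libraries, with p-values adjusted by the Benjamini-Hochberg method over the 18537 genes, and a gene was called under 0.05. Folds are ratios of mean TPM. The comparisons share groups, and their values stand side by side without being independent. Median-of-ratios scaling, an alternative, shifted the all-gene median by 0.28 on the log2 scale for LIN28B versus EV under the LoVo label, where calls went from 7463 higher and 3067 lower to 4882 and 5083. For alpelisib in DLD-1 the shift was -0.10, and calls went from 1677 higher and 4067 lower to 2620 and 2886. For alpelisib under the LoVo label the shift was -0.08, and calls went from 2807 higher and 4557 lower to 3588 and 3746.

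Among the receptors, NOTCH1 was high in LoVo EV alone. NOTCH1 (ENSG00000148400, chromosome 9, 136494433 to 136545786, minus strand) measured 13.4, 12 and 11.1 TPM in LoVo EV, 2.61, 2.41 and 2.52 in LoVo-labelled LIN28B, and 1.81, 1.90 and 1.92 TPM in LoVo-labelled LIN28B with alpelisib. In DLD-1 it measured 2.92, 3.30 and 2.66 TPM in EV, 2.74, 3.25 and 3.02 TPM in LIN28B, and 1.99, 2.02 and 2.02 TPM with alpelisib. The LoVo EV libraries stood above all others, and both alpelisib groups lay below their untreated LIN28B groups without overlap. LoVo EV exceeded DLD-1 EV by 1.73 ± 0.11 log2 (4.11-fold, limma adjusted p = 3.10e-09). LoVo-labelled LIN28B was 4.83-fold lower than LoVo EV (-1.90 ± 0.11, adjusted p = 1.05e-09), while DLD-1 LIN28B differed from its EV by 0.02 ± 0.11 (adjusted p = 0.986), a direction that turned under the scaling (-0.01). With alpelisib NOTCH1 was 1.49-fold lower in DLD-1 (-0.41 ± 0.11, adjusted p = 0.0133), a call lost under the scaling (adjusted p = 0.0768) and without DLD-1 LIN28B replicate 2 (0.0523). The difference with alpelisib under the LoVo label was -0.29 ± 0.11 (adjusted p = 0.0549), which missed the threshold and passed it with a pseudocount of 0.1 (adjusted p = 0.0420).

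**Figure D1:**
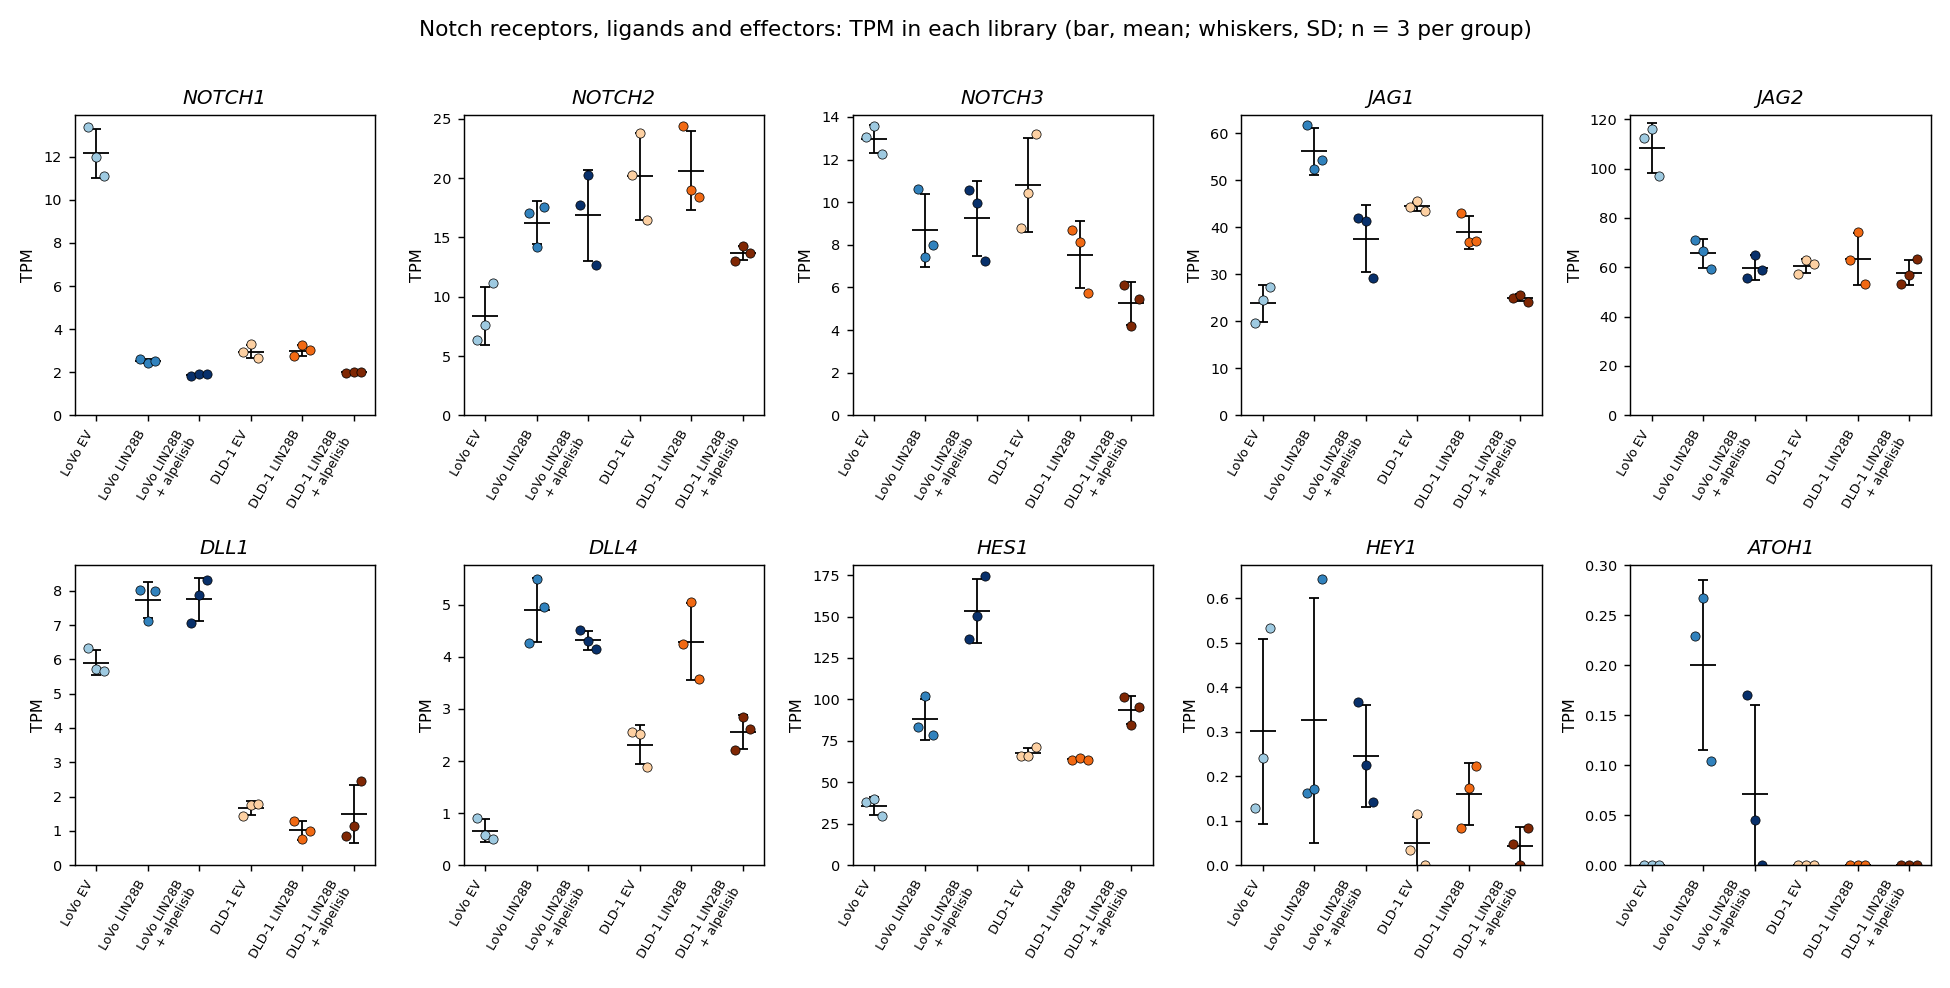
TPM of the 10 genes in each of the 18 libraries, 1 panel per gene with its own linear axis in TPM from 0 and the 6 groups along the horizontal axis. Points are libraries and bars are group means. NOTCH1 stands at 11.1 to 13.4 TPM in LoVo EV and at 1.81 to 3.30 TPM elsewhere, and HES1 is highest in LoVo-labelled LIN28B with alpelisib.

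NOTCH2 (ENSG00000134250, chromosome 1, 119911553 to 120069626, minus strand) has near-identical NOTCH2NL copies in the genome, so its values are uncertain where counting split reads among them. It measured 6.36, 7.63 and 11.1 TPM in LoVo EV, 17.0, 14.2 and 17.5 in LoVo-labelled LIN28B, and 17.7, 20.2 and 12.7 TPM with alpelisib. DLD-1 had 20.2, 23.8 and 16.4 TPM in EV, 24.4, 19.0 and 18.4 TPM in LIN28B, and 13.1, 14.2 and 13.7 TPM with alpelisib. LoVo EV was below every other library, and DLD-1 with alpelisib was below DLD-1 LIN28B without overlap. NOTCH2 was 1.94-fold higher in LoVo-labelled LIN28B than in LoVo EV (0.91 ± 0.19, limma adjusted p = 0.000679). With LoVo EV represented by its 1 library under 20% mitochondrial transcripts, an alternative added after the data were seen, that difference was 0.50 (adjusted p = 0.113). NOTCH2 fell 1.51-fold with alpelisib in DLD-1 (-0.55 ± 0.19, adjusted p = 0.0386), a call lost without any of 5 of the 6 libraries compared (adjusted p = 0.0573 to 0.158), under the scaling (-0.41, 0.0710) and without the filter (0.0831). It differed by 0.03 ± 0.19 under the LoVo label (adjusted p = 0.915), and by 0.03 ± 0.19 between DLD-1 LIN28B and EV (adjusted p = 0.978), which was -0.0016 under the scaling.

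NOTCH3 (ENSG00000074181, chromosome 19, 15159038 to 15200981, minus strand) spanned a narrower range. Its levels were 13.1, 13.6 and 12.3 TPM in LoVo EV, 10.6, 7.41 and 7.99 in LoVo-labelled LIN28B, and 10.6, 9.96 and 7.23 TPM with alpelisib. In DLD-1 they were 8.78, 10.5 and 13.2 TPM in EV, 8.72, 8.15 and 5.76 TPM in LIN28B, and 6.14, 4.17 and 5.44 TPM with alpelisib. Each neighbouring pair of groups in the order of means overlapped, from LoVo EV at the top to DLD-1 LIN28B with alpelisib at the bottom. NOTCH3 was 1.5-fold lower in LoVo-labelled LIN28B than in LoVo EV (-0.54 ± 0.19, limma adjusted p = 0.0200), a call lost without LoVo EV replicate 2 or LoVo-labelled LIN28B replicate 2 or 3 (adjusted p = 0.0592, 0.0820 and 0.0630). With LoVo EV given by its 1 library under 20% mitochondrial transcripts, that difference was -0.47. DLD-1 LIN28B with alpelisib was 2.06-fold lower than DLD-1 EV (-0.91 ± 0.19, adjusted p = 0.00182). Its 2 component differences, -0.47 ± 0.19 for LIN28B versus EV (adjusted p = 0.240) and -0.45 ± 0.19 for alpelisib versus untreated (adjusted p = 0.0812), each missed the threshold, the latter passing it without DLD-1 LIN28B replicate 3 (adjusted p = 0.0337).

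The make-up of the receptor pool set LoVo EV apart. The summed TPM of NOTCH1, NOTCH2 and NOTCH3, which are levels per length and can be added, averaged 33.5 in LoVo EV and 33.9 in DLD-1 EV. In LoVo EV, NOTCH1 made up 36.3% ± 4.30 (SD, n = 3) of that sum and NOTCH2 24.9% ± 6.65. In the other 5 groups the mean share of NOTCH1 lay between 6.91 and 9.81% and that of NOTCH2 between 59.2 and 66.1%. The receptor sum was lowest in DLD-1 LIN28B with alpelisib, at 20.9 ± 0.426 TPM (SD, n = 3) against 31.2 ± 4.41 TPM without it, while the NOTCH1 share was 9.61 and 9.81% and the NOTCH2 share 65.4 and 66.1%.

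**Figure D2:**
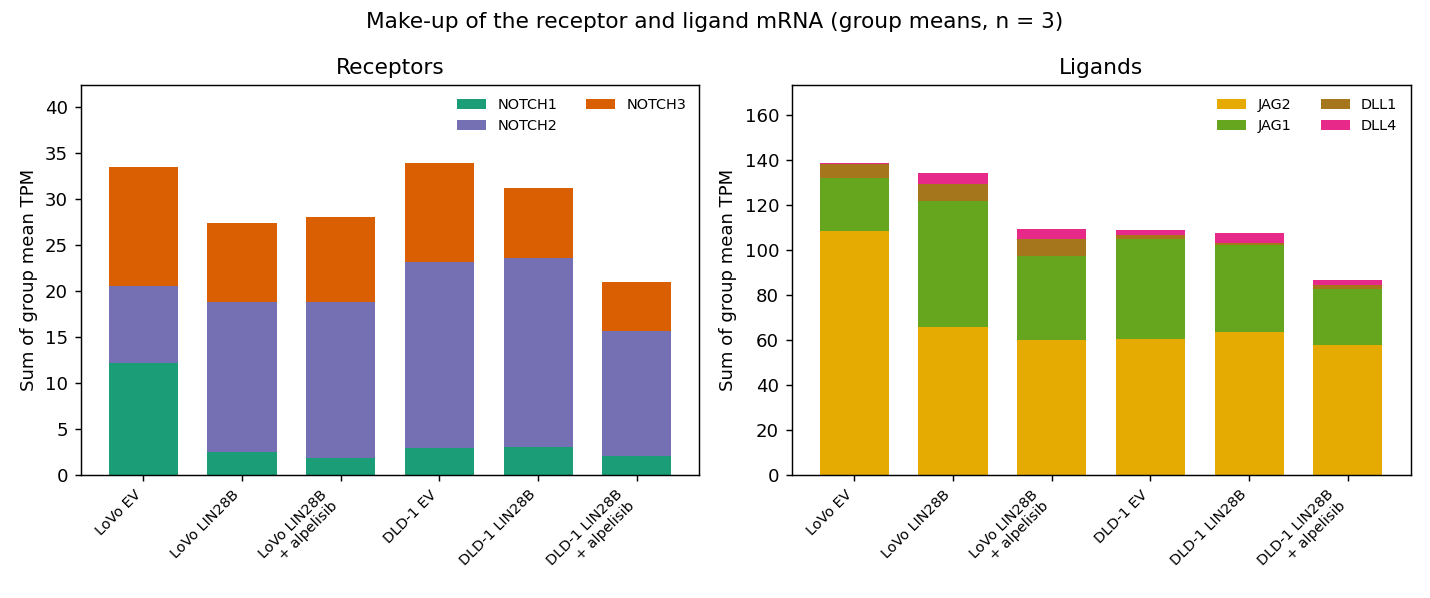
Make-up of the receptor pool (NOTCH1, NOTCH2, NOTCH3) and of the ligand pool (JAG1, JAG2, DLL1, DLL4) in the 6 groups of 3 libraries. Bars stack the group mean TPM of each gene, on linear axes in TPM from 0. LoVo EV has the largest mean NOTCH1 and JAG2 shares, at 36.3 and 78.0%, which are not drawn as percent.

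Among the ligands, JAG2 was the most abundant in every group mean. JAG2 (ENSG00000184916, chromosome 14, 105140981 to 105168824, minus strand) measured 112, 116 and 97 TPM in LoVo EV, 70.9, 66.7 and 59.3 in LoVo-labelled LIN28B, and 55.5, 65.2 and 59.0 TPM with alpelisib. DLD-1 had 57.4, 62.9 and 61.5 TPM in EV, 62.8, 74.2 and 53.2 TPM in LIN28B, and 53.2, 57.0 and 63.5 TPM with alpelisib. LoVo EV lay above all other libraries, and the other 5 groups overlapped along their order. JAG2 was 1.65-fold lower in LoVo-labelled LIN28B than in LoVo EV (-0.72 ± 0.11, limma adjusted p = 5.32e-05) and 1.79-fold higher in LoVo EV than in DLD-1 EV (0.83 ± 0.11, adjusted p = 1.37e-05). It was not called for LIN28B in DLD-1 (0.05 ± 0.11, adjusted p = 0.914), nor for alpelisib in DLD-1 (-0.12, adjusted p = 0.465, and 0.03 under the scaling) or under the LoVo label (-0.13, adjusted p = 0.406).

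JAG1 (ENSG00000101384, chromosome 20, 10637684 to 10673999, minus strand), the other ligand of the Serrate type, was the only member called lower with alpelisib under both labels. It measured 19.6, 24.5 and 27.3 TPM in LoVo EV, 61.8, 52.3 and 54.2 in LoVo-labelled LIN28B, and 42, 41.3 and 29.3 TPM with alpelisib. In DLD-1 it measured 44.3, 45.5 and 43.5 TPM in EV, 43.0, 36.8 and 37.0 TPM in LIN28B, and 25.0, 25.7 and 24.2 TPM with alpelisib. Each alpelisib group lay below its untreated group without overlap, and LoVo-labelled LIN28B lay above all other libraries. JAG1 was 1.56-fold lower with alpelisib in DLD-1 (-0.62 ± 0.13, limma adjusted p = 0.00257) and 1.5-fold lower under the LoVo label (-0.58 ± 0.13, adjusted p = 0.00247). Compared with EV, JAG1 was 2.36-fold higher in LoVo-labelled LIN28B (1.21 ± 0.13, adjusted p = 9.72e-07), and the difference in DLD-1 was -0.19 ± 0.13 (adjusted p = 0.590).

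**Figure D3:**
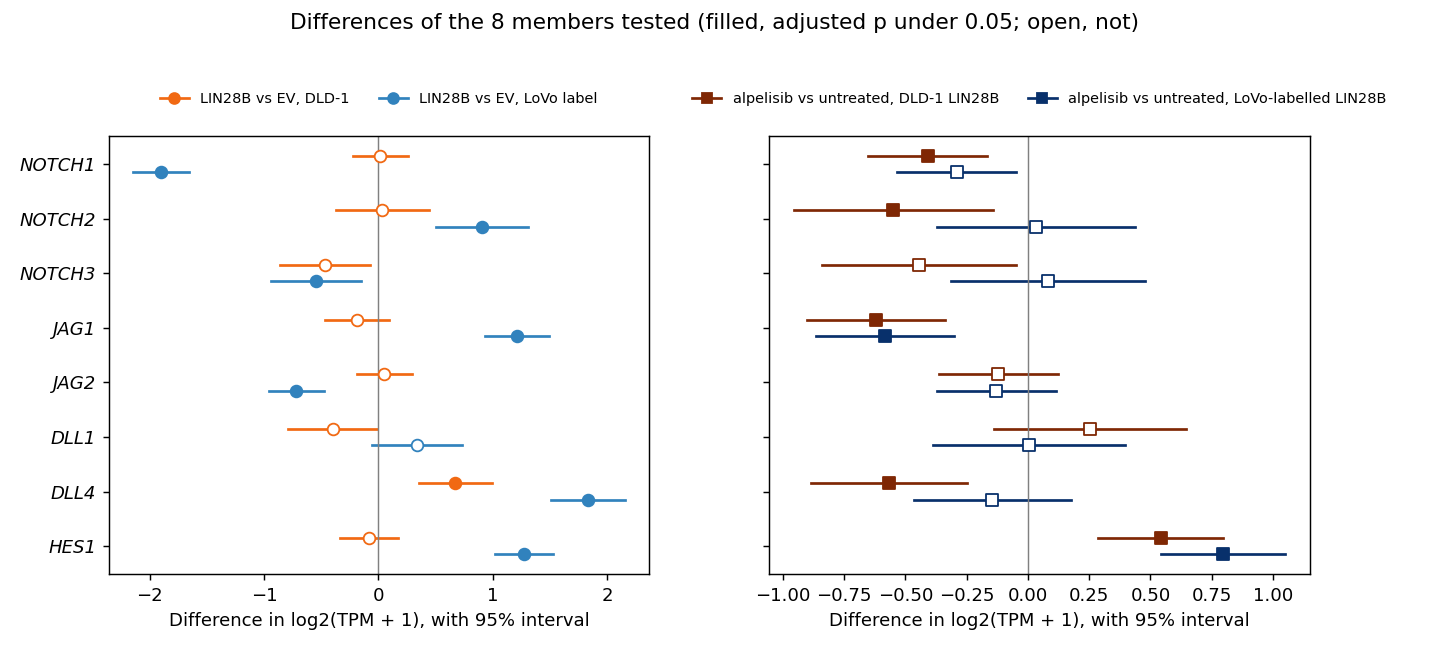
Differences of the 8 tested genes on the log2(TPM + 1) scale for LIN28B versus EV and for alpelisib versus untreated LIN28B cells, in DLD-1 and under the LoVo label. Points are limma estimates, bars are 95% confidence intervals, and filled points are called at an adjusted p under 0.05. JAG1 lies near -0.6 and HES1 above 0.5 with alpelisib under both labels.

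DLL1 and DLL4 are ligands of the Delta type and were the low members of the ligand pool. DLL1 (ENSG00000198719, chromosome 6, 170282206 to 170306565, minus strand) measured 6.33, 5.71 and 5.67 TPM in LoVo EV, 8.03, 7.11 and 8.0 in LoVo-labelled LIN28B, and 7.06, 7.86 and 8.31 TPM with alpelisib. In DLD-1 it was lower, at 1.43, 1.77 and 1.78 TPM in EV, 1.30, 0.755 and 1.01 TPM in LIN28B, and 0.849, 1.16 and 2.44 TPM with alpelisib. Every library under the LoVo label exceeded every DLD-1 library. The LoVo EV level was 3.56-fold that of DLD-1 EV (1.38 ± 0.18, limma adjusted p = 9.70e-06), and the LoVo-labelled LIN28B level was 7.55-fold that of DLD-1 LIN28B (2.11 ± 0.18, adjusted p = 6.16e-07). For DLL1, unlike NOTCH1 or JAG2, the LoVo-labelled LIN28B level lay nearer to LoVo EV than to any DLD-1 group. It was called in none of the LIN28B or alpelisib comparisons within a label, where its 6 differences ran from -0.40 to 0.34 (adjusted p = 0.135 to 0.994).

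DLL4 (ENSG00000128917, chromosome 15, 40929333 to 40939073, plus strand) was higher with LIN28B than with EV under each label. It measured 0.909, 0.576 and 0.500 TPM in LoVo EV, 4.27, 5.49 and 4.95 in LoVo-labelled LIN28B, and 4.51, 4.30 and 4.14 TPM with alpelisib. DLD-1 had 2.55, 2.51 and 1.88 TPM in EV, 4.25, 5.04 and 3.57 TPM in LIN28B, and 2.20, 2.85 and 2.62 TPM with alpelisib. LIN28B libraries lay above EV without overlap under each label. DLL4 was 7.41-fold higher in LoVo-labelled LIN28B than in LoVo EV (1.83 ± 0.15, limma adjusted p = 4.13e-08) and 1.85-fold higher in DLD-1 LIN28B than in DLD-1 EV (0.67 ± 0.15, adjusted p = 0.0280). The DLD-1 call was lost without any of 5 of the 6 libraries compared (adjusted p = 0.0579 to 0.118), with a pseudocount of 0.1 (0.0529), without the filter (0.0557) and with only these groups fitted (0.122). With alpelisib DLL4 was 1.68-fold lower in DLD-1 (-0.57 ± 0.15, adjusted p = 0.0100, and 0.0509 without DLD-1 LIN28B replicate 2), and the difference under the LoVo label was -0.15 ± 0.15 (adjusted p = 0.480).

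The ligand sum averaged 139 TPM in LoVo EV, then 134 in LoVo-labelled LIN28B and 109 with alpelisib, and 109, 108 and 86.9 TPM in the same order in DLD-1. JAG2 made up 78.0% ± 3.32 (SD, n = 3) of it in LoVo EV and 48.8 to 66.6% in the other group means. The JAG1 share was 17.2% ± 3.47 in LoVo EV and 41.7% ± 1.74 in LoVo-labelled LIN28B.

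Among the effectors, HES1 rose with alpelisib under both labels while JAG1 fell. HES1 (ENSG00000114315, chromosome 3, 194136145 to 194138732, plus strand), a basic helix-loop-helix repressor whose upstream bases are printed above, measured 38.0, 40.1 and 29.9 TPM in LoVo EV, 83.3, 102 and 78.8 in LoVo-labelled LIN28B, and 136, 150 and 174 TPM with alpelisib. DLD-1 had 66.2, 66 and 71.2 TPM in EV, 63.8, 64.7 and 63.4 TPM in LIN28B, and 101, 84.4 and 95.6 TPM with alpelisib. Both alpelisib groups lay above their untreated and EV groups without overlap, and the 3 groups under the LoVo label formed 3 separate steps. HES1 was 1.47-fold higher with alpelisib in DLD-1 (0.54 ± 0.12, limma adjusted p = 0.00319) and 1.74-fold higher under the LoVo label (0.80 ± 0.12, adjusted p = 9.08e-05). LIN28B with alpelisib exceeded EV 1.38-fold in DLD-1 (0.46 ± 0.12, adjusted p = 0.00894) and 4.26-fold under the LoVo label (2.06 ± 0.12, adjusted p = 6.39e-10). LIN28B alone differed from EV by -0.08 ± 0.12 in DLD-1 (adjusted p = 0.845) and was 2.45-fold higher under the LoVo label (1.27 ± 0.12, adjusted p = 1.95e-07). LoVo EV was 1.88-fold below DLD-1 EV (-0.90 ± 0.12, adjusted p = 8.56e-06).

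HEY1 (ENSG00000164683, chromosome 8, 79764010 to 79767863, minus strand), a related repressor, was at most 0.643 TPM in any library. It measured 0.130, 0.241 and 0.533 TPM in LoVo EV, 0.162, 0.171 and 0.643 in LoVo-labelled LIN28B, and 0.368, 0.226 and 0.143 TPM with alpelisib. In DLD-1 it was 0.0343, 0.115 and 0 TPM in EV, 0.0841, 0.173 and 0.222 TPM in LIN28B, and 0.0476, 0 and 0.0836 TPM with alpelisib. The 3 groups under the LoVo label overlapped with one another. Fitted without the filter, HEY1 was called by limma in 0 of the 10 comparisons (lowest adjusted p = 0.108, for LoVo EV versus DLD-1 EV).

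ATOH1 (ENSG00000172238, chromosome 4, 93828753 to 93830964, plus strand) was listed at 0 in all 9 DLD-1 libraries and in all 3 LoVo EV libraries. It was listed at 0.230, 0.267 and 0.104 TPM in LoVo-labelled LIN28B and at 0.170, 0.0449 and 0 TPM with alpelisib. Values above 0 thus occurred under the LoVo label alone and never with EV, with a maximum of 0.267 TPM. Without the filter, the ATOH1 difference between LoVo-labelled LIN28B and LoVo EV was 0.26 on the log2(TPM + 1) scale (limma adjusted p = 0.00134) and that for alpelisib under the LoVo label was -0.16 (adjusted p = 0.0437). The spread behind these p-values is shared with the groups in which every library was at 0. They therefore do not measure the spread of the groups compared, and the treated and untreated LoVo-labelled LIN28B values overlapped. At unknown depth, a value of 0 does not show that the gene was silent.

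Counts of members called are given beside the share of all genes called in the same comparison. For LIN28B versus EV in DLD-1, 1 of 8 members was called, DLL4, where 2.53% of all genes were called, 1.21% higher and 1.32% lower (3 of 8 at an unadjusted p under 0.05). Leaving out any 1 library took the count of all genes called from 469 to between 185 and 229. For the same comparison under the LoVo label, 7 of 8 were called, 4 higher (NOTCH2, JAG1, DLL4, HES1) and 3 lower (NOTCH1, NOTCH3, JAG2), where 56.8% of all genes were called, 40.3% higher and 16.5% lower. The median difference of the 8 was 0.62, against 0.26 over all genes.

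With alpelisib, 5 of 8 members were called in DLD-1, HES1 higher and NOTCH1, NOTCH2, JAG1 and DLL4 lower, where 31% of all genes were called, 9.05% higher and 21.9% lower. This count was 2 without DLD-1 LIN28B replicate 2 and 3 under the scaling. Their median was -0.43, against -0.09 over all genes. Under the LoVo label 2 of 8 were called, HES1 higher and JAG1 lower, where 39.7% of all genes were called, 15.1% higher and 24.6% lower. The median there was -0.06, the same as over all genes to 2 decimals. The alpelisib difference itself was not called between the labels for any of the 8 (limma, 0 of 8, where 0.847% of all genes were called, 0.637% higher and 0.21% lower, and 1 of 8, NOTCH2, at an unadjusted p under 0.05). For NOTCH2 the alpelisib difference was 0.58 higher under the LoVo label than in DLD-1, with a 95% interval from 0.0094 to 1.16 (adjusted p = 0.390). A difference in how the 2 labels responded to alpelisib was therefore not shown for NOTCH1, NOTCH2 or DLL4, although their calls differed. The LIN28B difference, by contrast, was called between the labels for 7 of 8, 5 with a higher and 2 with a lower value under the LoVo label, where 42.7% of all genes were called, 30.4% higher and 12.4% lower.

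Against EV, LIN28B with alpelisib differed in 4 of 8 members in DLD-1, where 29.9% of all genes were called, 9.71% higher and 20.2% lower. HES1 was higher and NOTCH1, NOTCH3 and JAG1 were lower. The NOTCH1 call (-0.39 ± 0.11, limma adjusted p = 0.0171) was lost under the scaling (0.0667), with only these groups fitted (0.0557), and without DLD-1 EV replicate 2 (0.0774) or alpelisib replicate 1 (0.0506). For the LoVo-labelled cells 6 of 8 differed, where 46.8% were called, 32.2% higher and 14.7% lower. JAG1 was below EV in DLD-1 (-0.81 ± 0.13, limma adjusted p = 0.000397) and above it under the LoVo label (0.63 ± 0.13, adjusted p = 0.000917, and 0.0650 with LoVo EV given by 1 library).

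The EV libraries of the 2 lines differed in 7 of 8 members, all but NOTCH3, where 55.5% of all genes were called, 17.3% higher and 38.2% lower. NOTCH3 was called higher in LoVo EV under the scaling (0.54, limma adjusted p = 0.0199). NOTCH1, JAG2 and DLL1 were higher in LoVo EV, and NOTCH2, JAG1, DLL4 and HES1 were lower. Between LoVo-labelled and DLD-1 LIN28B libraries, 3 of 8 members were called, where 14% of all genes were called, 7.96% higher and 6.02% lower. These were DLL1, JAG1 (0.52 ± 0.13, limma adjusted p = 0.0152) and HES1 (0.45 ± 0.12, adjusted p = 0.0193), all higher under the LoVo label. JAG1 lost its call without LoVo-labelled LIN28B replicate 1 or DLD-1 LIN28B replicate 2 or 3 (adjusted p = 0.0571 to 0.0714). HES1 lost its call without LoVo-labelled LIN28B replicate 2 or any DLD-1 LIN28B library (adjusted p = 0.0505 to 0.101), and under the scaling (0.0546).

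Around these members, 50 other pathway genes in 6 lists were examined, of which 41 passed the filter. For LIN28B versus EV in DLD-1, 2 rose and 0 fell, where 1.21% of all genes were called higher and 1.32% lower. The 2 were DTX2, an E3 ligase of the Deltex family (0.43, limma adjusted p = 0.0142), and HES6, a HES family gene (0.59, adjusted p = 0.0421). DTX2 lost its call without DLD-1 EV replicate 2 or DLD-1 LIN28B replicate 3, and HES6 without any 1 of the 6 libraries. In the LoVo-labelled cells 23 of 41 rose and 4 fell, where 40.3% of all genes were called higher and 16.5% lower, with a median of 0.37 against 0.26 over all genes. The counts were 13 higher and 9 lower under the scaling, 15 and 7 without mitochondrial transcripts, and 13 and 3 with LoVo EV given by 1 library.

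Beside the 40.3% of all genes called higher in LIN28B versus EV under the LoVo label, 8 of 9 endocytosis and ubiquitin regulators rose and 0 fell (5 and 1 under the scaling), among them NEURL1B (1.94), DTX4 (1.26), ITCH (1.12) and FBXW7 (0.98), all ubiquitin ligases or ligase subunits. Of the 9 cleavage genes, 6 rose and 1 fell (4 and 2 under the scaling). The sheddase ADAM10 differed by 1.43, from 77.5, 79.8 and 164 TPM in LoVo EV to 311, 231 and 280 TPM, and by 0.73 with LoVo EV given by 1 library (adjusted p = 0.0574). The gamma-secretase subunit NCSTN rose by 1.31. RBPJ, the DNA-binding partner of the receptor's intracellular domain, rose from 31.1, 33.1 and 33.6 to 76.6, 64.1 and 73.3 TPM (1.10, limma adjusted p = 9.17e-07), and 7 of 11 genes of the nuclear complex rose and 0 fell (4 and 1 under the scaling). Among other HES genes and Notch targets the direction was mostly down, with 3 of 5 lower and 1 higher (3 and 0 under the scaling), where 16.5% of all genes were called lower. HES2 fell by 2.19 and HES4 by 1.32, and HES7 differed by -1.20, or -0.48 with LoVo EV given by 1 library (adjusted p = 0.411).

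**Figure D4:**
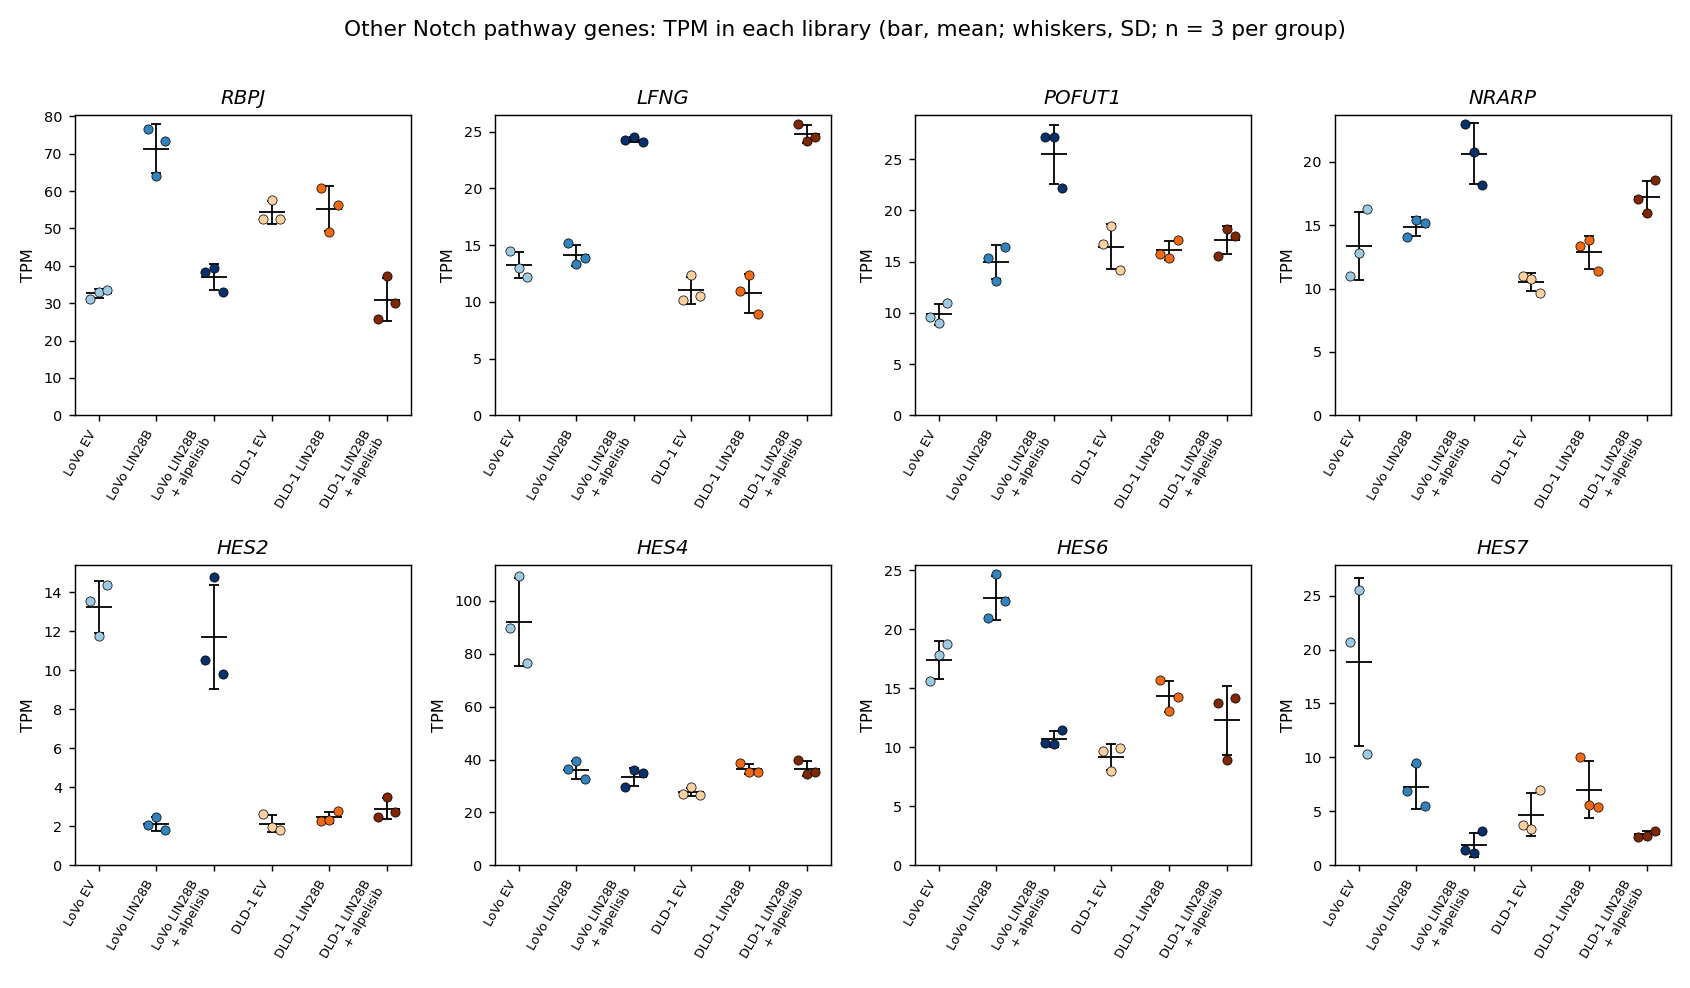
TPM of the other pathway genes RBPJ, LFNG, POFUT1, NRARP, HES2, HES4, HES6 and HES7 in each of the 18 libraries. Each gene has 1 panel with a linear axis from 0, points for libraries and bars for group means. RBPJ is lower and LFNG higher with alpelisib under both labels.

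With alpelisib, 15 of the 41 pathway genes fell and 5 rose in DLD-1 (median -0.10, against -0.09 over all genes), and 13 fell and 8 rose under the LoVo label (median -0.06, against -0.06). Over all genes, 21.9% were called lower and 9.05% higher in DLD-1, and 24.6% and 15.1% under the LoVo label. The excess of falls was smaller under the scaling, at 9 lower and 7 higher in DLD-1 and 10 lower and 9 higher under the LoVo label. The counts also depended on single libraries: in DLD-1 they were 8 lower and 4 higher without LIN28B replicate 1, and 8 lower and 3 higher without alpelisib replicate 1. In the LoVo-labelled cells they were 8 lower and 5 higher without LIN28B replicate 3, and 7 lower and 6 higher without alpelisib replicate 3. Endocytosis and ubiquitin regulators fell in 7 of 9 genes in DLD-1 and in 6 of 9 under the LoVo label (5 and 4 under the scaling), with MIB2, a ligase that acts on ligands, the 1 gene that rose under each.

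RBPJ was lower with alpelisib in every library. Its level went from 60.7, 48.9 and 56.1 TPM to 25.7, 37.2 and 30.0 TPM in DLD-1 (-0.83, limma adjusted p = 0.000159) and from 76.6, 64.1 and 73.3 TPM to 38.3, 39.5 and 33.0 TPM under the LoVo label (-0.93, adjusted p = 2.27e-05). RBPJ thus fell in the same libraries in which HES1 rose. LFNG, the Fringe glycosyltransferase that modifies Notch receptors, went from 10.9, 12.4 and 8.91 TPM to 25.7, 24.2 and 24.5 TPM in DLD-1 (1.15, adjusted p = 3.68e-06). In the LoVo-labelled cells LFNG went from 15.2, 13.4 and 13.9 TPM to 24.3, 24.6 and 24.1 TPM (0.74, adjusted p = 7.79e-05). The 6 treated LFNG values lay between 24.1 and 25.7 TPM and above all 12 others.

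NRARP, a Notch target that feeds back on the pathway, measured 13.4, 13.8 and 11.4 TPM in DLD-1 LIN28B and 17.1, 15.9 and 18.5 TPM with alpelisib (0.39, limma adjusted p = 0.0279). This NRARP call was lost in 4 of 6 fits that each left out 1 library, those without DLD-1 LIN28B replicate 1 or 3 or alpelisib replicate 1 or 3 (adjusted p = 0.0521 to 0.115). In the LoVo-labelled cells NRARP went from 14, 15.4 and 15.2 TPM to 23.0, 20.7 and 18.2 TPM (0.44, adjusted p = 0.0115, and 0.0539 without alpelisib replicate 1). Among the HES genes, HES7 was lower with alpelisib under the LoVo label (-1.55, adjusted p = 0.00173) and in DLD-1 (-1.0, adjusted p = 0.0320). In DLD-1 the HES7 call was lost without LIN28B replicate 1 or any alpelisib library (adjusted p = 0.0501 to 0.148). HES6 fell under the LoVo label (-1.01, adjusted p = 5.89e-05).

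HES2 differed between the labels. It measured 2.08, 2.49 and 1.78 TPM in LoVo-labelled LIN28B and 10.5, 14.8 and 9.83 TPM with alpelisib, a 5.53-fold rise (2.01, limma adjusted p = 2.65e-07). LoVo EV had 13.6, 11.8 and 14.4 TPM. In DLD-1 its 9 libraries lay between 1.82 and 3.51 TPM. The test of the difference in alpelisib effect gave 1.84 (limma adjusted p = 0.00121). HES2 was the only 1 of the 41 other pathway genes called there, where 0.847% of all genes were called, 0.637% higher and 0.21% lower.

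**Figure D5:**
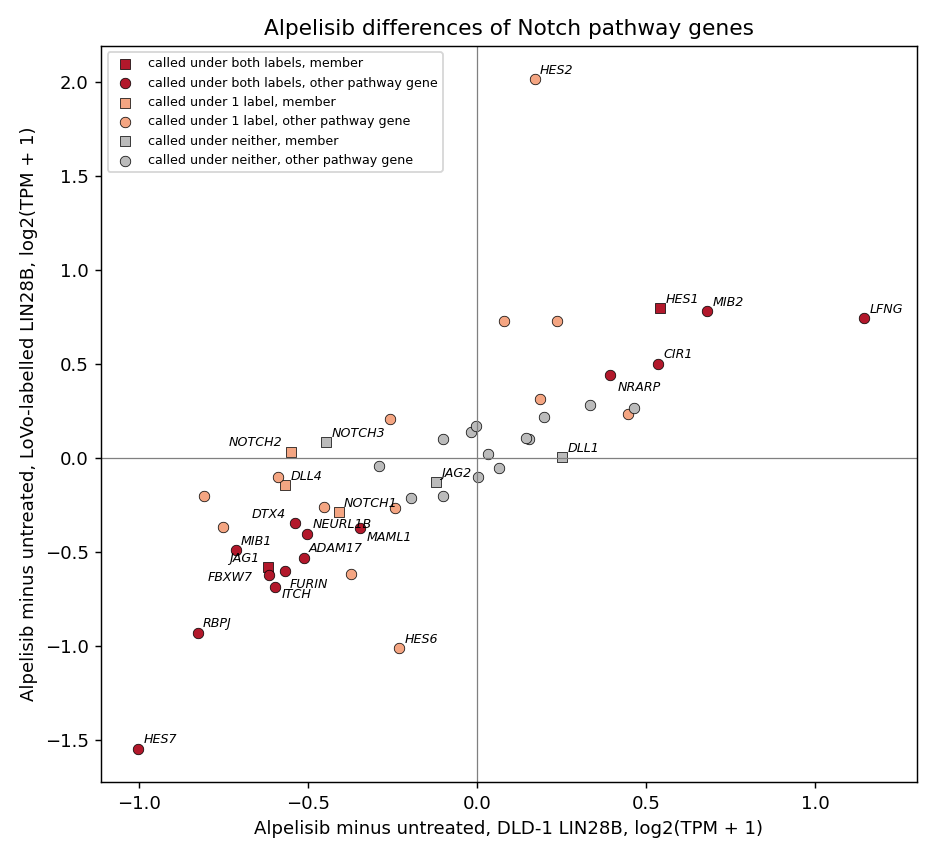
Alpelisib differences of the Notch members and other pathway genes, on the log2(TPM + 1) scale, in DLD-1 (horizontal axis) and under the LoVo label (vertical axis). Squares are members and circles other pathway genes, with dark red for a call under both labels, orange under 1 and grey under neither. LFNG and HES1 lie in the upper right, RBPJ and JAG1 in the lower left, and HES2 high on the vertical axis alone.

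Of the cleavage genes, FURIN fell by 0.57 in DLD-1 and 0.60 under the LoVo label, and the sheddase ADAM17 fell by 0.51 and 0.53. ADAM10 and NCSTN were lower in DLD-1 by estimates of -0.75 and -0.59, each a call lost without any of 5 of the 6 libraries. NUMB, an endocytic inhibitor of the receptor, fell by 0.81 and the ligand-directed ligase MIB1 fell by 0.71 in DLD-1, and ITCH fell by 0.69 under the LoVo label. The O-fucosyltransferase POFUT1, which prepares the receptor for Fringe enzymes, rose by 0.73 under the LoVo label.

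Of 17 secretory lineage genes, which lie downstream of ATOH1 in the gut, 9 passed the filter. In DLD-1 LIN28B versus EV, 0 of 9 were called by limma, where 2.53% of all genes were called. Of the 9, 1 gene, AGR2, had an unadjusted p under 0.05. Under the LoVo label 6 rose and 0 fell, where 40.3% of all genes were called higher, led by TFF3 and REG4, peptides of goblet and enteroendocrine cells. TFF3 was listed at 1.36, 0 and 0.746 TPM in LoVo EV and between 59.0 and 89.3 TPM in the other 15 libraries. With alpelisib 1 rose and 1 fell in DLD-1, where 9.05% of all genes were called higher and 21.9% lower. For the LoVo label 3 rose and 1 fell, where these shares were 15.1% and 24.6%. The secretory counts were the same under the scaling. REG4 went from 2.95, 2.35 and 4.11 TPM to 40.2, 36.2 and 35.5 TPM in DLD-1 (3.23) and from 50.6, 55.9 and 54.6 TPM to 117, 136 and 142 TPM under the LoVo label (1.27), differences on the log2(TPM + 1) scale. AGR2, a secretory disulfide isomerase, was lower under both, with differences of -0.59 in DLD-1 (limma adjusted p = 0.0611 without alpelisib replicate 1) and -0.83 under the LoVo label. ATOH1 was listed at 0 in all DLD-1 libraries, which does not show that it was silent. Whether the REG4 rise had any relation to ATOH1 was not tested.

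The genes whose 6 group means were most like those of a member were found among 15361 tested genes, as the smallest root mean square difference of centred log2(TPM + 1) means. For NOTCH3 these were BMS1P23 (0.0832), DSP (0.0936), a desmosomal protein, and CD44 (0.0948), a cell-surface receptor for hyaluronan. CD44 averaged 203 TPM in LoVo EV and 83.0 TPM in DLD-1 LIN28B with alpelisib. For HES1 they were CYP1B1-AS1 (0.0483), EFNA5 (0.0948), an ephrin ligand, and PRKAB1 (0.106), a subunit of the AMP-activated kinase. CYP1B1-AS1, an antisense gene that cannot be told apart from its partner where strand was not used in counting, averaged 13.2, 34.7 and 58.5 TPM across LoVo EV, LoVo-labelled LIN28B and that group with alpelisib. The corresponding means in DLD-1 were 27.4, 24.2 and 34.2 TPM. For JAG1 they were CTTNBP2NL (0.0450), the kinase gene OXSR1 (0.0537) and PPP1R12B (0.0648), a myosin phosphatase subunit. Over 6 groups, such likeness is a description of these means.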

How the data were processed

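Poly(A)-selected RNA of 18 libraries was available as TPM, a table that the authors deposited with a column for each library, per the file headers. For the upstream steps, the submitters' processing notes list hg38, STAR 2.7.10, Picard, HTSeq and DESeq2, without role or order. TPM fixes each library's total, so a change in abundant transcripts shifts all other values. It keeps no depth, so depth and counting error are unknown. Annotation release, strand use and gene lengths: not given in the sources used here. All columns were assigned to samples, and groups came from the labels.

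Of 61806 genes, 61757 had a symbol. Genes of 1 TPM or more in at least 3 libraries (18537) entered limma 3.58.1 (R 4.3.3) as log2(TPM + 1) (6 groups, trend, 12 residual degrees of freedom), two-sided, with Benjamini-Hochberg adjustment over all genes within each of 10 comparisons. The script was tested on simulated data. The members and lists were chosen with earlier results of these data known. Named were all 10 members, LIN28B, up to 4 called genes per list with the largest difference and a mean of 2 TPM or more, RBPJ, ADAM10, NRARP, HES6, GFI1 and SPDEF, and the 3 genes most like NOTCH3, HES1 and JAG1, which took the place of ATOH1 because that gene failed the filter. Not every gene the rule takes is described. Alternatives were a pseudocount of 0.1, no filter, median-of-ratios scaling, removal of 37 mitochondrial genes, only the groups compared, a replicate block and each library left out. For the other pathway and secretory genes these alternatives were added after the data were seen.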

Additional observations from a re-analysis of the deposited data

Results flagged for a closer look

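For 7 members the LIN28B difference was not the same under the LoVo label as in DLD-1, by a limma test of that difference, where 42.7% of all genes were called. On the log2(TPM + 1) scale, LoVo label minus DLD-1, it was -1.92 for NOTCH1 (adjusted p = 1.64e-07), 0.87 for NOTCH2 (0.0160), 1.40 for JAG1 (2.01e-05), -0.77 for JAG2 (0.00118), 0.74 for DLL1 (0.0320), 1.16 for DLL4 (0.000377) and 1.35 for HES1 (1.09e-05). The DLL1 difference lost its call in 8 of the 12 fits that each left out 1 library, and with the scaling its adjusted p was 0.211 and that of NOTCH2 0.0579. With LoVo EV given by 1 library, the difference was 0.47 for NOTCH2 and 0.79 for DLL1. Because the LoVo-labelled LIN28B libraries resembled DLD-1 more than LoVo EV, line and LIN28B effect cannot be told apart here.

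In the test of the alpelisib difference between the labels, 0.847% of all genes were called. The alpelisib difference was not the same under the 2 labels for 3 of the 41 other pathway and 9 secretory genes tested. It was larger under the LoVo label by 1.84 for HES2 (limma, adjusted p = 0.00121) and by 1.26 for the mucin MUC2 (adjusted p = 0.0351), and for REG4 the value was -1.96 (adjusted p = 0.00103), a larger rise in DLD-1. The MUC2 call was lost in all 12 fits that each left out 1 library (adjusted p = 0.0503 to 0.108).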

How the results depend on the processing

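Of 512 comparisons of a member's result with its value under another setting, 482 kept direction and call, 21 lost the call, 5 gained it and 4 reversed, and of 576 that left out a library these were 511, 32, 3 and 30. No cause was tested. The count of members called for LIN28B versus EV in DLD-1 (1) was 0 with a pseudocount of 0.1, 0 without the filter and 0 with only the groups compared, and 0 to 1 with a library left out. For alpelisib in DLD-1 (5) it was 3 under median-of-ratios scaling, and 2 to 6 with a library left out. For LoVo-labelled versus DLD-1 LIN28B (3) it was 1 to 3 with a library left out, at its lowest without DLD-1 LIN28B replicate 2 or 3. Other pathway genes called for LIN28B in DLD-1 (2) numbered 1 without the filter, 0 with only the groups compared, 1 with the replicate block, and 0 to 1 with a library left out. Under the LoVo label they numbered 16 (27) with LoVo EV given by 1 library. With alpelisib and a library left out they numbered 11 to 17 in DLD-1 (20) and 13 to 22 under the LoVo label (21), and secretory genes called in DLD-1 numbered 1 to 2.

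The reversals were all of values that had not been called. Under the scaling, LIN28B versus EV in DLD-1 gave -0.010 for NOTCH1, -0.0016 for NOTCH2 and -0.016 for RBPJ, and JAG2 was 0.027 for alpelisib and 0.042 for LIN28B with alpelisib versus EV in DLD-1. Under the LoVo label LIN28B versus EV turned to -0.18 for NRARP and -0.086 for GFI1 under the scaling, and NRARP to -0.027 without mitochondrial transcripts and -0.12 with LoVo EV given by 1 library. With a library left out, LIN28B versus EV in DLD-1 ran from -0.038 to 0.078 for NOTCH1, -0.097 to 0.16 for NOTCH2, -0.066 to 0.17 for JAG2 and -0.048 to 0.11 for RBPJ. Alpelisib under the LoVo label ran from -0.10 to 0.21 for NOTCH2, -0.012 to 0.23 for NOTCH3 and -0.047 to 0.061 for DLL1. Alpelisib in DLD-1 ran from -0.0093 to 0.44 for DLL1, and LIN28B with alpelisib versus EV in DLD-1 from -0.41 to 0.038. The alpelisib difference between labels ran from -0.053 to 0.20 for JAG1, -0.13 to 0.11 for JAG2 and -0.44 to 0.013 for DLL1. The LIN28B difference between labels ran from -0.24 to 0.052 for NOTCH3, and LoVo-labelled versus DLD-1 LIN28B from -0.060 to 0.18 for JAG2.

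Equal replicate numbers did not pair the libraries: in 0 comparisons did all 3 correlations exceed 0.1, and the highest was 0.119. Among members, the replicate block ended 1 call, NOTCH2 with alpelisib in DLD-1 (limma, adjusted p = 0.0566). Besides the splits printed beside the results, scaling took calls for LoVo EV versus DLD-1 EV from 3212 higher and 7082 lower to 5018 and 4837 (shift -0.23), and for LIN28B with alpelisib versus EV under the LoVo label from 5962 and 2719 to 4095 and 4350 (shift 0.20). In DLD-1 the latter went from 1800 and 3740 to 2590 and 3088 (shift -0.07), and calls of the LIN28B difference between labels went from 5627 and 2296 to 3654 and 3715 (shift 0.26). Since TPM holds no depth, the precision of DLL1, DLL4, HEY1 and ATOH1 could not be given beyond the spread of 3 libraries.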
